A study of Homo sapiens with 4 samples.

Results

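A set of 10 genes whose products tumour cells carry or secrete to act on T cells, natural killer (NK) cells and macrophages was examined in cisplatin-sensitive and cisplatin-resistant head and neck cancer cells, namely CD274, PDCD1LG2, CD276, CD47, LGALS9, NT5E, PVR, MICA, MICB and ULBP2. They were taken by gene name from the array's own annotation, which gave 10 of 43305 gene names and 20 of 58201 probes that are not controls. HN4 and HN30 are established human cell lines of head and neck squamous cell carcinoma (HNSCC). Their cisplatin-resistant derivatives, HN4/DDP and HN30/DDP, had been grown in stepwise rising doses of this DNA-crosslinking platinum drug and were held in 20 μM of it, for 48 h by the sample labels, whereas the labels of the parental cells name no drug. All cells grew in DMEM with fetal bovine serum, and total RNA of each was read on 1 one-colour Agilent array, so that each group was a single sample and the acquired resistance and the drug still present in the resistant cells cannot be told apart. Each resistant line is labelled as a single derivative of its parental line, and 1 array per group gives no spread between cultures.

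Immune checkpoint ligands bind inhibitory receptors on T cells: PD-L1 (CD274) and PD-L2 (PDCD1LG2) bind PD-1, and galectin-9 (LGALS9) is a sugar-binding ligand of TIM-3. CD47 gives macrophages a signal not to engulf the cell, and CD73 (NT5E) makes immunosuppressive adenosine outside the cell. MICA, MICB and ULBP2 are stress-induced ligands of NKG2D, an activating receptor of NK cells, while the poliovirus receptor (PVR, CD155) binds both activating and inhibitory receptors of NK and T cells.

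In the HN4 line PD-L1, galectin-9 and ULBP2 were higher in the resistant cells, by 1.80, 1.04 and 1.64 on the log2 scale at the brightest probe of each, and no member was lower by more than 1. In the HN30 line CD73 was lower in the resistant cells on both of its probes, with log2 differences of -1.46 and -1.21, the second -0.77 under an alternative. PVR gave -1.55 in that line at its brightest probe and 1.35 at another. LGALS9 was the member with probes higher by more than 1 in both lines, 2 of its 3, where 2.64% of all probes were. Of these, 1 passed that limit under every other way of processing, but its annotation also lists the paralogs LGALS9B and LGALS9C. The brightest LGALS9 probe gave 0.82 in HN30 and was not called there. No member passed the one test that the design allows, and neither did any other of the 29521 genes tested. B7-H3 (CD276) differed by at most 0.29 in either line, although other normalizations gave up to 0.85 in HN30.

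Values are log2 of the processed spot signal minus the array's 75th percentile, so 0 is the signal of the probe at that percentile, and a difference of 1 on this scale is a 2-fold difference. The error given with a difference is the scanner SD, which the scanning software assigns to the spots of the arrays and which leaves out all variation between cultures, extractions and arrays. A probe was called higher or lower when its difference passed 1 and its signal was well above background on the brighter array. Signals of different probes are not compared, because each probe binds with its own strength, and sums over a marker list are given only to set one array beside another. Probes are named by their first base in the transcript, as the array's annotation gives it.

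The 75th percentile signal lay between 444 and 496 on the 4 arrays, and between 55.3% (HN30) and 63.6% (HN30/DDP) of the 60901 spots were well above background, with no saturated spot. All 9 epithelial markers examined were well above background in HN4, HN4/DDP and HN30, and 8 were in HN30/DDP, where keratin 6A was not. Of these markers 4 were higher and 1 lower by more than 1 in HN4/DDP, and 1 was higher and 2 lower in HN30/DDP, where 5.77% and 5.36% (HN4) and 12.9% and 8.67% (HN30) of all genes were. The keratins went both ways: KRT5 differed by -4.05 in HN4 and -1.93 in HN30 (resistant minus parental), KRT6A was higher by 3.32 in HN4/DDP and at least 183-fold lower in HN30/DDP, and KRT17 was higher by 3.29 in HN4/DDP with 0.19 in HN30. The 2 KRT14 probes gave 2.33 and 3.95 in HN4 and 0.22 and 3.38 in HN30. Of 16 lymphocyte and NK-cell markers, 7, 8, 6 and 10 were well above background on the 4 arrays (HN4 first, then HN4/DDP, HN30, HN30/DDP), and their summed signal relative to the 75th percentile was 15.8, 13.0, 17.1 and 13.4. CD4 read 3.91, 3.61, 4.02 and 3.62 on the log2 scale, and each other marker of this list read -1.37 or less on every array, so the sum is not a value for the class. MS4A1, KLRD1 and KLRK1 were not well above background on any array. In HN4/DDP 0 of these markers were called, and in HN30/DDP 2 were called higher (CD3E, at least 1.38-fold, and PDCD1) and 1 lower (CD226, at least 1.57-fold). CD3D differed by -0.67 and PDCD1, the gene of PD-1, by 1.12 (0.70 under an alternative) in HN30, with -0.11 and 0.28 in HN4. The sums were 7.41, 12.7, 4.21 and 40.4 for the 5 myeloid markers measured. In HN30/DDP CD14 read 5.30 on the log2 scale and each other myeloid marker -1.12 or less, so that sum is not a value for the class. Of the myeloid markers 2 were higher by more than 1 in HN4/DDP (CSF1R by 1.66 and ITGAM by 1.53, or 0.69 under an alternative). In HN30/DDP 3 were (CD14 by 3.49, ITGAM by 2.06 and ITGAX by 1.14), and 0 were lower in either line. CSF1R and AIF1 differed by -0.11 and -0.55 in HN30. The sums were 0.402, 1.03, 0.243 and 0.791 for 7 fibroblast markers, of which 2 were well above background on each array, and COL1A1 was higher by 1.73 and 2.43 in the resistant cells. They lay between 0.224 and 0.317 for 4 endothelial markers, among which PECAM1 was well above background only in HN4 (-3.96) and HN30/DDP (-3.91), and the VWF probes disagreed, with -0.04 and at least 5.37-fold higher in HN4/DDP, and 0.46 and 1.49 in HN30. The part of the myeloid markers in the results for HN30/DDP was not tested.

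**Figure D1:**
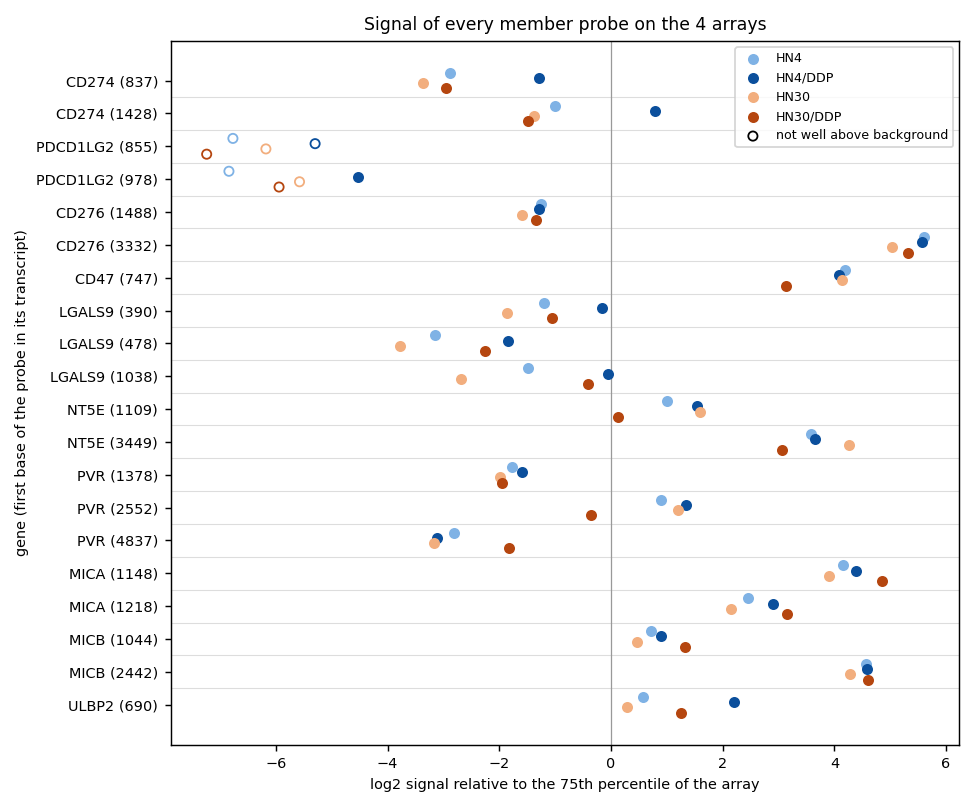
Signal of each of the 20 member probes on the 4 arrays, on a log2 scale relative to the array's 75th percentile (horizontal), with 1 row per probe and open circles for signals not well above background. HN4/DDP (dark blue) stands apart to the right for CD274, both resistant arrays lie to the right of both parental arrays for LGALS9 and ULBP2, and HN30/DDP (dark orange) stands apart to the left for NT5E, CD47 and 1 PVR probe.

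CD274 was measured by 2 probes, at base 837 (hg19 chr9:5465546-5465605, plus strand) and at base 1428 (chr9:5468310-5468369). The probe at base 837 is shown because it reports the same direction as the brighter probe from another stretch of the transcript.
CD274 probe at base 837: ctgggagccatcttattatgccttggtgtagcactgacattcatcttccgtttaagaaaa
Its signal was -2.88 for HN4, -1.30 for HN4/DDP, -3.36 for HN30 and -2.95 for HN30/DDP. At base 1428 the signal was -1.01 for HN4, 0.80 for HN4/DDP, -1.39 for HN30 and -1.48 for HN30/DDP. On both probes HN4/DDP was the one high array and the other arrays lay close together. PD-L1 mRNA was thus higher in HN4/DDP than in HN4 by 1.59 (scanner SD 0.22, 3.01-fold) and 1.80 (scanner SD 0.21, 3.49-fold), both beyond the scanner error. In HN30/DDP it differed from HN30 by 0.41 (scanner SD 0.25) and -0.10 (scanner SD 0.21), both within 2 scanner SD and of opposite signs. The parental lines differed by -0.48 and -0.38 (HN30 minus HN4), whereas the resistant lines differed by -1.66 and -2.28 (HN30/DDP minus HN4/DDP). The difference between the responses of the lines, -1.18 (scanner SD 0.33) and -1.90 (scanner SD 0.29), has no test, since 4 arrays leave no residual for it.

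PDCD1LG2, the gene of PD-L2, lies beside CD274 on chromosome 9 and was near the limit of detection. Its probe at base 978 (hg19 chr9:5557692-5557751) read -6.84 for HN4, -4.52 for HN4/DDP, -5.58 for HN30 and -5.94 for HN30/DDP. Only the HN4/DDP signal was well above background, and it was at least 1.18-fold higher than in HN4, the bound being the lowest signal well above background on the dim array. The HN4 difference at base 978 was 2.32 (scanner SD 1.31), which was called although it lay within 2 scanner SD. The probe at base 855 (chr9:5549556-5557628, an interval longer than the probe, so that the probe crosses an intron) read -6.77, -5.30, -6.18 and -7.24 on the same arrays. None of these was well above background, and no level of PD-L2 can be given for HN4, HN30 or HN30/DDP.

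CD276 encodes B7-H3, a protein of the B7 family found on many carcinomas. Its probe at base 3332 (hg19 chr15:74006791-74006850) read 5.60 for HN4, 5.56 for HN4/DDP, 5.03 for HN30 and 5.32 for HN30/DDP. The probe at base 1488 (chr15:73996699-73996758) read -1.25, -1.28, -1.60 and -1.34. The 4 arrays lay within 0.57 of one another at base 3332. The differences were -0.03 on both probes in HN4 (scanner SD 0.20 and 0.21) and 0.29 and 0.26 in HN30 (scanner SD 0.20 and 0.21), all within 2 scanner SD.

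LGALS9 was measured by 3 probes, whose sequences are shown because 2 of them were the only member probes called in both lines. The probe at base 390 lies at hg19 chr17:25967739-25967798, the probe at base 478 at chr17:25969369-25973575 and the probe at base 1038 at chr17:25974458-25975920, and both later intervals span an intron.
LGALS9 probe at base 390: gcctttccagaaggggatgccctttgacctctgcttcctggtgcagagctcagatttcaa
LGALS9 probe at base 478: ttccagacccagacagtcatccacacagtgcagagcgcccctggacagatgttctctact
LGALS9 probe at base 1038: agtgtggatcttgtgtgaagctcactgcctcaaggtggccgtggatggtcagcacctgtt
At base 390 the signal was -1.21 for HN4, -0.17 for HN4/DDP, -1.87 for HN30 and -1.05 for HN30/DDP. At base 478 it was -3.14, -1.84, -3.77 and -2.25, and at base 1038 it was -1.48, -0.05, -2.68 and -0.41. On each probe HN30 was the lowest array and HN4/DDP the highest, and in each line the resistant array lay above its parental array. In HN4 the difference was 1.04 (scanner SD 0.21, 2.05-fold), 1.30 (scanner SD 0.23, 2.46-fold) and 1.44 (scanner SD 0.21, 2.71-fold) from the first probe to the last. In HN30 it was 0.82 (scanner SD 0.21, 1.76-fold), 1.52 (scanner SD 0.26, 2.87-fold) and 2.27 (scanner SD 0.22, 4.82-fold). The size thus depended on the probe, with a spread of 1.45 between the HN30 values. The array's annotation also gives transcripts of the near-identical paralogs LGALS9B and LGALS9C for the probe at base 1038, so its value cannot be assigned to LGALS9 alone.

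CD47 had 1 probe, at base 747 on the minus strand (hg19 chr3:107778363-107779622, across an intron). Its signal was 4.20 for HN4, 4.08 for HN4/DDP, 4.13 for HN30 and 3.13 for HN30/DDP. HN30/DDP was the one low array. The difference was -0.11 (scanner SD 0.20) in HN4 and -0.998 (scanner SD 0.20) in HN30, just inside the limit of 1, so CD47 was not called.

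NT5E is a surface enzyme that turns AMP into adenosine, and was measured at base 1109 (hg19 chr6:86176992-86181005, across an intron) and at base 3449 (chr6:86204891-86204950). The probe at base 1109 is shown because the lines moved to opposite sides on it.
NT5E probe at base 1109: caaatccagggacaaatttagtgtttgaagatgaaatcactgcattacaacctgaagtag
Its signal was 1.00 for HN4, 1.55 for HN4/DDP, 1.59 for HN30 and 0.13 for HN30/DDP. At base 3449 the signal was 3.58, 3.65, 4.27 and 3.06. HN30/DDP was the lowest array on both probes, although its parental line was the highest. NT5E was lower in HN30/DDP than in HN30, with a log2 difference of -1.46 at base 1109 (scanner SD 0.20, 2.75-fold) and of -1.21 at base 3449 (scanner SD 0.20, 2.31-fold). In HN4 the differences were 0.55 (scanner SD 0.20, 1.46-fold) and 0.07 (scanner SD 0.20), so only the probe at base 1109 passed 2 scanner SD there.

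PVR was measured by 3 probes that did not agree in HN30. The probe at base 2552 (hg19 chr19:45166078-45166137) read 0.89 for HN4, 1.33 for HN4/DDP, 1.20 for HN30 and -0.35 for HN30/DDP. At base 1378 (chr19:45162098-45162157) the signal was -1.78, -1.59, -1.99 and -1.96, and at base 4837 (chr19:45168363-45168422) it was -2.81, -3.11, -3.17 and -1.83. HN30/DDP was thus the lowest array on one probe and the highest on another. The HN30 differences were -1.55 (scanner SD 0.20, 2.93-fold lower), 0.03 (scanner SD 0.21) and 1.35 (scanner SD 0.23, 2.54-fold higher), a spread of 2.90, the widest among the members. In HN4 the probes lay between -0.30 and 0.44. No direction for PVR as a gene can be read from these probes in HN30.

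The NKG2D ligands had positive differences on all of their 5 probes in both lines, of 0.32 to 1.01 in HN30, where scaling by the median turned 1 MICB probe to -0.10, and of 0.01 to 1.64 in HN4, where MICB was within the scanner error. MICA and MICB lie in the HLA class I region of chromosome 6. The MICA probe at base 1148 (hg19 chr6:31382847-31382906) read 4.15 for HN4, 4.39 for HN4/DDP, 3.90 for HN30 and 4.85 for HN30/DDP, and that at base 1218 (chr6:31382917-31382976) read 2.45, 2.90, 2.14 and 3.15. HN30/DDP was the highest array on both, and HN30 the lowest. The differences were 0.95 and 1.01 in HN30 (scanner SD 0.20 for both, 1.93- and 2.01-fold) and 0.24 and 0.45 in HN4 (scanner SD 0.20 for both), of which the first was within 2 scanner SD.

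The MICB probe at base 1044 (hg19 chr6:31475185-31475244) read 0.71 for HN4, 0.89 for HN4/DDP, 0.46 for HN30 and 1.32 for HN30/DDP. At base 2442 (chr6:31478833-31478892) the signal was 4.57, 4.58, 4.28 and 4.60. HN30 was the lowest array on both probes. The HN30 differences were 0.85 (scanner SD 0.20, 1.81-fold) and 0.32 (scanner SD 0.20, 1.25-fold), and the second was within 2 scanner SD. In HN4 they were 0.18 and 0.01 (scanner SD 0.20 for both).

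ULBP2 is a ligand of the same receptor that is anchored to the membrane by a lipid, and had 1 probe, at base 690 (hg19 chr6:150267714-150267773). It is shown because its annotation also lists transcripts of the related genes RAET1G and RAET1L, from which its signal cannot be separated.
ULBP2 probe at base 690: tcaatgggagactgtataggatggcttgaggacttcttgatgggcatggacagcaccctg
Its signal was 0.57 for HN4, 2.21 for HN4/DDP, 0.28 for HN30 and 1.25 for HN30/DDP. Both resistant arrays lay above both parental arrays. The difference was 1.64 in HN4 (scanner SD 0.20, 3.11-fold) and 0.97 in HN30 (scanner SD 0.20, 1.96-fold).

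**Figure D2:**
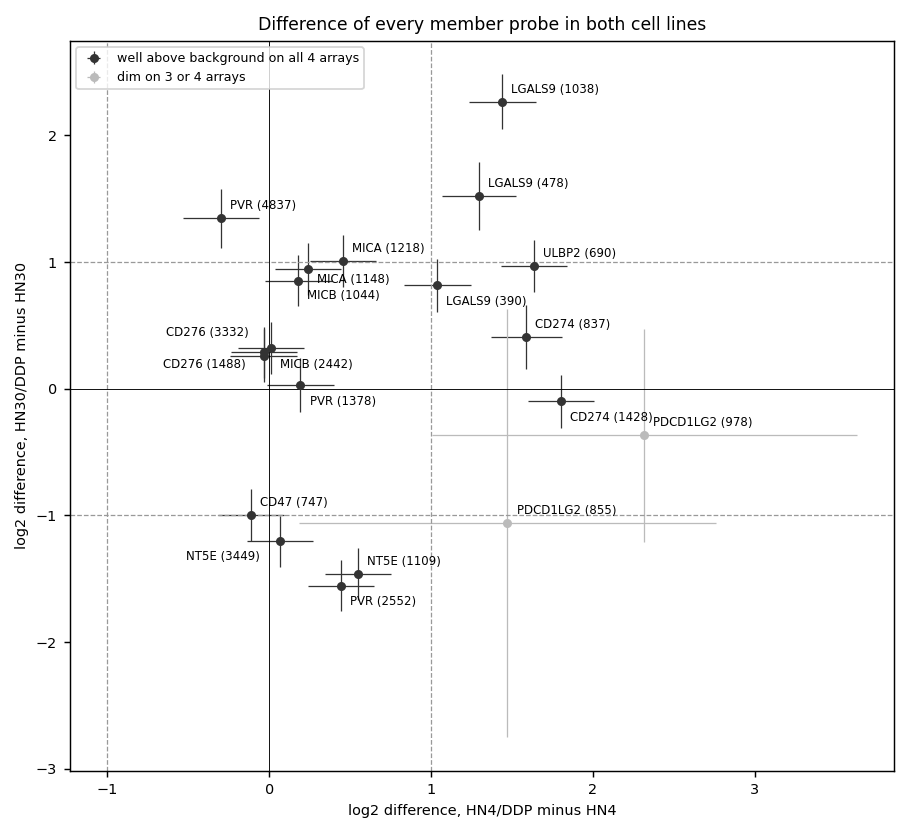
Log2 difference of each member probe in HN4 (HN4/DDP minus HN4, horizontal) against that in HN30 (HN30/DDP minus HN30, vertical). Bars are 1 scanner SD, dashed lines mark differences of 1, and the number after a gene is the first base of the probe. LGALS9 and ULBP2 lie to the upper right, CD274 to the right near 0 in HN30, and NT5E and 1 PVR probe to the lower right.

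Counted over probes, 7 of the 20 were higher by more than 1 in HN4/DDP and 0 were lower, where 5.77% and 5.27% of all probes were called. In HN30/DDP 4 were higher and 3 lower, where 12.9% and 8.56% of all probes were called. The 7 probes called in HN4 were both CD274 probes, the 3 LGALS9 probes, ULBP2 and 1 of PDCD1LG2. The called probes in HN30 were 2 of LGALS9, 1 of MICA and 1 of PVR among those higher, and both of NT5E and 1 of PVR among those lower. Within 2 scanner SD of 0 lay 11 probes in HN4 and 8 in HN30. Probes of 1 gene share its transcript and are not independent.

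With each gene represented by its probe of the highest mean signal, 4 of 10 members (CD274, PDCD1LG2, LGALS9, ULBP2) were called higher in HN4/DDP and 0 lower, against 5.77% and 5.36% of all genes, and 2 were with normexp background correction or a pseudocount of 16. In HN30/DDP 0 were called higher and 2 lower (NT5E, PVR), against 12.9% and 8.67% of all genes, or 13.7% and 14.6% of the 22149 genes well above background on every array. The HN30 counts were thus not far from the shares of all genes, and with other scalings and probe rules they ran from 0 to 3 higher and from 1 to 3 lower. The study's own limit was a log fold change above 2 with no base stated, taken here as log2. By it 1 member, PDCD1LG2, was called higher in HN4/DDP, where 2.24% of all genes were, and that value rests on a dim parental signal. No member was called lower there (1.36% of all genes), and 0 were called in HN30/DDP, where 5.48% of all genes were higher and 1.8% lower. Over probes, that limit gave 1 higher and 0 lower in each line, PDCD1LG2 at base 978 in HN4 (2.22% and 1.32% of all probes) and LGALS9 at base 1038 in HN30 (5.53% and 1.85%). The median difference of the members was 0.34 in HN4 and 0.09 in HN30, while that of all genes was -0.21 and -0.07. The members were chosen with earlier results of these data known, so these counts are a description.

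Across both lines, 2 probes, both of LGALS9, were higher by more than 1 in each, where 2.64% of all probes were, and 0 were lower in both, where 1.21% were. The sign was shared between the lines on 11 of 20 probes, some of them within the scanner error. The share over all probes was not worked out, so this count is a description only. The median difference of the members was -0.27 between the parental lines (HN30 minus HN4) and -0.92 between the resistant lines (HN30/DDP minus HN4/DDP). Between the resistant lines the values ran from -2.28 for CD274 to 0.45 for MICA. PVR had -1.69 at its brightest probe and 1.28 at base 4837. PDCD1LG2 entered both medians although only its HN4/DDP signal was well above background. The same medians over all genes were not worked out.

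The only contrast with more than 1 array per arm set the resistant against the parental arrays of both lines, blocked by cell line, and was fitted with limma over the 29521 genes whose signal was well above background on any array. It has 1 residual degree of freedom per gene. It called 0 of the 10 members and 0% of all genes at an adjusted p under 0.05, and at an unadjusted p under 0.05 lay 1 member and 2537 genes. ULBP2 came closest among the members, with a fitted mean difference of 1.30 over the lines (SE 0.43, limma adjusted p = 0.547) from 1.64 and 0.97. LGALS9 was next, with a fitted mean of 0.93 (SE 0.35, limma adjusted p = 0.586) from 1.04 and 0.82. For CD274 the mean difference was 0.85 (SE 0.58, limma adjusted p = 0.746) and for NT5E -0.57 (SE 0.48, limma adjusted p = 0.793), both with lines that went apart. A value that misses the threshold here does not show that a member was at the same level.

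The sequences before the start sites of CD274, MICA and MICB are shown because both CD274 probes were called in HN4 and neither in HN30, and because the related genes MICA and MICB had positive differences on all their probes, of which 1 was called. The 250 bases upstream of the RefSeq start site (GRCh38.p14) were available for 9 of the 10 members. Capitals in CD274 mark a pair of overlapping interferon response element matches (GAAA repeated after a gap of 2 bases) on the reverse strand, and 1 match of TTCNNNGAA, the letters of a STAT site. Capitals in MICA and MICB mark a match of GAANNTTC, the core letters of a heat shock element.
CD274, chr9:5450292-5450541, plus strand: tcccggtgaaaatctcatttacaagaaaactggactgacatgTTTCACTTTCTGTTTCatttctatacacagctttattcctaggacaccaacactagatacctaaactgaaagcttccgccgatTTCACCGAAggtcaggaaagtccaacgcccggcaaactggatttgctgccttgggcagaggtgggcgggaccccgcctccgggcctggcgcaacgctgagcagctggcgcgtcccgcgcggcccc
MICA, chr6:31403345-31403594, plus strand: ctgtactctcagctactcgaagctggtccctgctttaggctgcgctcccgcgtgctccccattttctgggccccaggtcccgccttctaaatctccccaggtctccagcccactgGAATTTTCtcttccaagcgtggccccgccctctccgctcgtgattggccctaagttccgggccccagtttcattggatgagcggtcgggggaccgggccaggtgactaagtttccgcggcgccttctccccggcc
MICB, chr6:31497895-31498144, plus strand: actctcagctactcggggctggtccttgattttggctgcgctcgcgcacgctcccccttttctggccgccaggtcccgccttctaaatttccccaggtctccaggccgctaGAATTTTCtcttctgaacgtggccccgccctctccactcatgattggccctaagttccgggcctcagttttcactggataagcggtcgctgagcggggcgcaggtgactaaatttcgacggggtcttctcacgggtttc

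Counted back from the start site on both strands, the CD274 matches began at -208, -202 and -125, and the heat shock letters began at -135 in MICA and -139 in MICB. Among 35116 promoters of the same length, the interferon response element was in 3.02%, TTCNNNGAA in 6.57% and GAANNTTC in 5.78%. The MICA and MICB stretches were identical at 210 of 254 alignment columns (82.7%). Of the other letters searched, TGACNNNGC, the core of an antioxidant response element, was in CD47 and NT5E and in 10.9% of promoters. TTCNNGAA (6.62% of promoters), an NF-kB site (1.4%), CACGTG (6.34%) and TGACGTCA (1.65%), the letters of a full cAMP response element, were in none of the 9 members searched. A match is a run of letters and not a measured binding site.

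Other genes of the same systems were examined in lists drawn up with earlier results known. Each count is to be read against the share of all genes called, 5.77% higher and 5.36% lower in HN4/DDP and 12.9% higher and 8.67% lower in HN30/DDP. Of 20 other T-cell checkpoint and costimulatory ligands, 5 were higher and 3 lower in HN4/DDP (median -0.17), and 9 were higher and 1 lower in HN30/DDP (median 1.13, but 0.33 with normexp background correction). CD70, a costimulatory ligand of CD27, had the farthest value, at 0.16 for HN4, -1.21 for HN4/DDP, -1.14 for HN30 and 3.59 for HN30/DDP. Its difference was -1.37 in HN4 and 4.73 in HN30. TNFSF9, the ligand of 4-1BB, was 2.51, 2.17, 0.92 and 3.66, so that it was higher by 2.75 in HN30/DDP and differed by -0.33 in HN4. TNFSF4, the OX40 ligand, was at least 1.38-fold lower in HN4/DDP and at least 2.01-fold higher in HN30/DDP, with HN4/DDP and HN30 not well above background. CEACAM1 was higher in both lines, by 2.32 and 1.63, from 0.51 to 2.83 in HN4 and from -0.79 to 0.85 in HN30, where its second probe gave 0.82. HMGB1, a chromatin protein that also binds TIM-3 outside the cell, was lower in both, with differences of -1.51 in HN4 and -2.19 in HN30.

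Among 5 nectin family genes related to PVR, NECTIN4 was the one called, and it was higher in both lines. Its signal was 0.34 for HN4, 2.98 for HN4/DDP, -0.33 for HN30 and 2.47 for HN30/DDP, a difference of 2.64 and 2.81. Of the other NKG2D ligands 3 were on the array by name, with a median of 0.96 in HN4 and 0.70 in HN30, and the lowest values under an alternative were 0.33 and -0.01. ULBP1 was 0.26, 1.23, -2.01 and 1.30, a difference of 0.96 in HN4 and 3.30 in HN30, with 1.73 and 3.06 on its second probe. Among 12 further NK-cell ligands 0 were higher and 2 lower in HN4/DDP, and 2 were higher and 3 lower in HN30/DDP, the first close to the 12.9% of all genes. CLEC2B, the ligand of NKp80, had a difference of -2.22 in HN4 and 1.23 in HN30, the latter 0.50 under an alternative. PCNA, a replication clamp that also binds NKp44, had a difference of -2.54 in HN30 and -0.64 in HN4.

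Of the death receptors through which lymphocytes kill, TNFRSF10B (TRAIL receptor DR5) was 4.08 for HN4, 5.36 for HN4/DDP, 4.30 for HN30 and 5.33 for HN30/DDP, higher by 1.29 and 1.03, the second coming to 0.61 under an alternative. FAS went the way of NT5E, at 2.30, 2.93, 2.68 and 1.24, with a difference of 0.64 in HN4 and -1.44 in HN30. Its 3 probes lay between 0.47 and 0.75 in HN4 and between -1.44 and -1.34 in HN30. Beside CD47, CD24, which also signals to macrophages, was 3.26, 4.98, 1.68 and 4.04 and thus higher by 1.71 and 2.36. THBS1, a secreted ligand of CD47, was lower in both lines, with -3.25 in HN4 and -1.98 in HN30 on one probe, and -1.99 and -1.35 on the other.

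In the adenosine pathway around CD73, 4 of 10 genes were higher and 0 lower in HN4/DDP, and 5 were higher and 1 lower in HN30/DDP, where 5.77% and 12.9% of all genes were higher. ENPP1, an ectoenzyme that makes AMP from ATP, was well above background in both resistant lines and in neither parental line, by at least 19.0-fold in HN4 and at least 1.56-fold in HN30, although the log2 difference came down to 2.37 and 0.14 under other ways of processing. DPP4, which binds adenosine deaminase at the cell surface, was at least 8.87-fold higher in HN4/DDP and higher by 2.53 in HN30/DDP, with 1.55 and 1.14 as the lowest log2 differences under other processing. SLC29A1, an adenosine transporter, was 2.76, 2.81, 3.94 and 1.26, a difference of -2.67 in HN30 and 0.05 in HN4. CD38 was well above background only in HN4/DDP, at least 1.33-fold above HN4. The adenosine receptor ADORA2B, named after its values were seen, lay between 3.79 and 4.53 on all arrays.

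**Figure D3:**
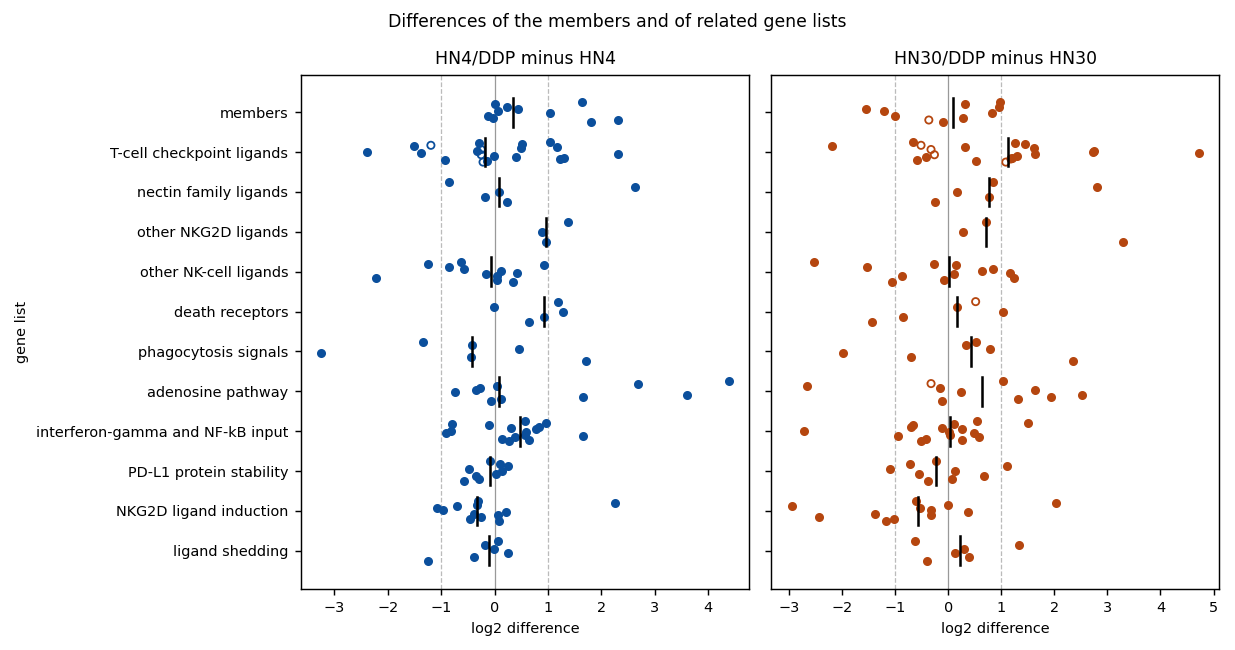
Log2 differences of single genes (points) in HN4/DDP against HN4 (left) and HN30/DDP against HN30 (right) for the 10 members and 11 related lists. Vertical bars are the median of a list, dashed lines mark differences of 1, and open circles are genes not well above background on either array. The T-cell ligand list lies to the right in HN30 with a median of 1.13 (0.33 with normexp), and the NKG2D induction list to the left with -0.57.

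Upstream of these ligands, 16 genes of interferon-gamma and NF-kB signalling, known inputs of PD-L1, had a median of 0.47 in HN4 (0.30 to 0.53 under the alternatives), and 1 was higher and 1 lower in HN30/DDP (median 0.02). NFKB1 was 3.28, 2.48, 3.37 and 0.66, a difference of -2.71 in HN30 and -0.81 in HN4. IRF1, named after its values were seen, had a difference of -0.91 in HN4 and 0.49 in HN30. In 9 genes that set PD-L1 protein stability, 0 were called in HN4/DDP and 2 in HN30/DDP, COPS5 lower (-1.09, or -0.52 under an alternative) and HIP1R higher, near the 8.67% and 12.9% of all genes, the 3 HIP1R probes running from 0.27 to 2.47.

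In 12 genes linked to the induction of NKG2D ligands by damage and stress, 1 was higher and 1 lower in HN4/DDP, near the shares of all genes. In HN30/DDP 1 was higher and 5 lower, where 12.9% and 8.67% of all genes were (median -0.57, from -0.99 to -0.10 under the alternatives). E2F1, a cell cycle factor, had a difference of -2.95 in HN30 and -0.71 in HN4, and the checkpoint kinase CHEK1 of -2.43 and -0.25. DDIT3 (CHOP), a stress factor, was higher in both lines, at -0.70 for HN4, 1.56 for HN4/DDP, -1.19 for HN30 and 0.84 for HN30/DDP. HSF1, the heat shock factor, named after its values were seen, lay between 6.36 and 6.76 on all arrays. The heat shock genes HSPA1A and HSPA1B, likewise named afterwards, had differences of -0.96 and -1.08 in HN4 and of -0.33 and -0.54 in HN30. Of 6 proteases and partners that release MICA and related ligands from the surface, ADAM9 was lower in HN4/DDP (-1.24, or -0.76 under an alternative) and MMP14 higher in HN30/DDP (1.34, or 0.92 under an alternative), and the others were within 1 in both lines.

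**Figure D4:**
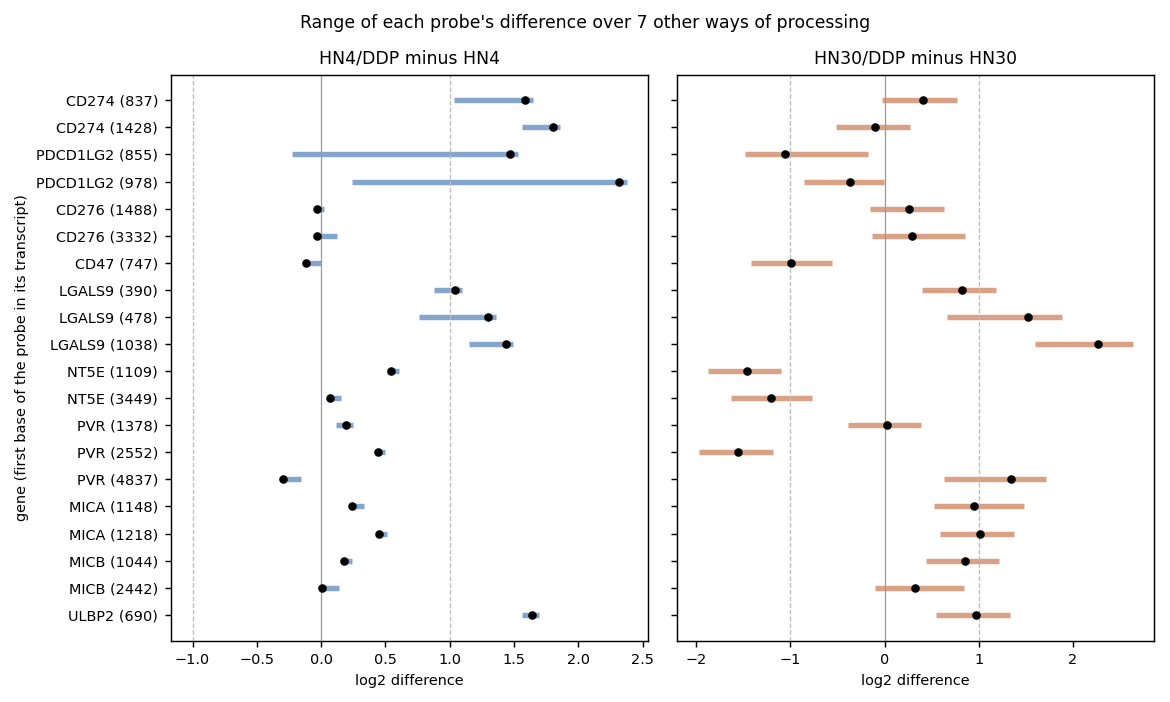
Log2 difference of each member probe as reported (points) and its range over 7 other ways of processing (bars), for HN4 (left) and HN30 (right), with dashed lines at 1 and -1. In HN4 the CD274 and ULBP2 bars stay above 1, while PDCD1LG2 has the longest bars. In HN30 the bars cross 0 for both CD274 and both CD276 probes, 1 PVR probe and 1 MICB probe.

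Over 7 other ways of processing, CD274 in HN4 stayed between 1.03 and 1.65 at base 837 and between 1.56 and 1.86 at base 1428, and ULBP2 between 1.56 and 1.69. In HN30, NT5E stayed between -1.88 and -1.09 at base 1109, and LGALS9 at base 1038 between 1.60 and 2.63. NT5E at base 3449 ran from -1.62 to -0.77 there and passed the limit of 1 under 4 of the 7, with -0.77 in the deposited table. CD47 in HN30 ran from -1.42 to -0.56 and MICA at base 1148 from 0.53 to 1.47, each on both sides of the limit. CD274 in HN30 ran from -0.03 to 0.77 and from -0.52 to 0.27, so neither probe had a settled direction there. PDCD1LG2 at base 978 in HN4 ran from 0.24 to 2.37, and LGALS9 at base 390 in HN4 had 0.88 as its lowest value. LGALS9 at base 478 came to 0.76 in HN4 and 0.67 in HN30 with normexp background correction and was then called in neither line, so that the probe called in both lines under each of the 7 was that at base 1038, whose signal the paralogs may share.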

How the data were processed

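Total RNA of 4 samples was hybridised to 1 Agilent SurePrint G3 array each, labelled with Cy3. The authors deposited the intensity of every spot as written by Feature Extraction 10.7.1.1, which subtracted background, removed spatial trends and marked outliers and spots well above background, and a table of log2 values with the same quantiles on every array (58341 IDs). Here spots marked as outliers were dropped, the remaining spots of each probe averaged, and log2 of the processed intensity minus the array's 75th percentile was taken. A gene was represented by its probe of the highest mean.

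Single pairs of arrays have no test. The blocked contrast used limma 3.58.1 in R 4.3.3 (lmFit and eBayes with a trend), tested on simulated data. Its p-values rest on how far the cell lines disagree in their difference, moderated by a trend over all genes. They hold no measure of the spread between cultures. Tables were made with Python 3.11.15, numpy 2.4.6 and pandas 2.3.3, sequences were aligned with Biopython 1.88 and figures drawn with matplotlib 3.10.9.

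Every member probe is named. In each other list, genes past a log2 difference of 2 in either line are named (up to 6), or otherwise up to 2 with the largest difference among those whose signal cleared background on each array of that line. Members and lists were chosen with earlier results of these data known. Some genes of the lists are not reported here.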

Additional observations from a re-analysis of the deposited data

Results flagged for a closer look

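The lines moved to opposite sides, each by more than 2 scanner SD, on 2 member probes. NT5E at base 1109 was higher by 0.55 in HN4/DDP and had a difference of -1.46 in HN30. PVR at base 2552 was higher by 0.44 in HN4/DDP and had a difference of -1.55 in HN30. Each line has 1 array per state, so no test of the gap between them was possible and it was not tested, and the second NT5E probe (0.07 in HN4) and the other PVR probes did not repeat the opposition.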

How the results depend on the processing

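With 1 array per group, precision is limited by the number of arrays, and for PDCD1LG2 by signals near background. Of 60 results under alternatives for counts, medians and the limma call, 46 stayed close to the reported value. The exceptions follow. In HN4/DDP the 4 members called higher became 2 with normexp background correction, 2 with a pseudocount of 16 and 1 at a limit of 2. In HN30/DDP the count of 0 higher became 3 with the 75th percentile taken over probes well above background on all arrays, 2 with quantile normalization, 2 in the deposited table and 1 with the mean over a gene's probes. The 2 members called lower there became 1 under each of those 4 settings, 3 with scaling by the median and 0 at a limit of 2. The HN30 median of 0.09 became -0.33 with scaling by the median and 0.46 with the percentile over probes well above background. These scalings moved the median of all genes in HN30 by -0.42 and 0.36, and a floor for dim signals moved it by -0.24. In HN4 normexp and the pseudocount moved it by 0.16, and quantile normalization and the deposited table by 0.20. For single probes, 199 values moved by less than the scanner SD and 81 by more, and no called difference changed sign. For 6 of 11 related lists in HN30 and 2 in HN4 the median changed sign in some setting. The limma call of 0 members held without a trend, without the block, with normexp and with no filter on dim genes (43305 genes), with 2169 to 3261 genes at an unadjusted p under 0.05. No paired analysis was possible because of the replicate numbers, each group having only replicate 1, and the pairing by cell line is the block of the limma contrast itself. Leaving out a cell line leaves no residual degrees of freedom, so that was not run as a test.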
